A study of Mus musculus with 6 samples.

Results

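Matricellular and matrix glycoproteins were followed in 393P, a mouse lung tumour cell line, with and without depletion of the kinase MKK4. The set was given as 10 genes, and its members were all probe sets (groups of oligonucleotide probes for 1 transcript) that the platform annotation assigns to exactly 1 of these genes. They were 21 probe sets for 9 genes, Tnc, Fn1, Sparc, Thbs1, Thbs2, Postn, Tgfbi, Fbln2 and Fstl1, out of 45037 probe sets and 18193 genes in all. Spp1, the osteopontin gene, has no probe set listed in that annotation and was not analysed here. A further probe set annotated to both Pald1 and Thbs1 was left out by the same rule. The study compared 3 cultures carrying a control vector (scrambled shRNA, 393P-scr) with 3 cultures carrying an shRNA against MKK4 (393P-shZ). MKK4, encoded by Map2k4, is a kinase that activates JNK and p38. All 6 cultures derive from primary lung tumours of mice with the alleles p53R172H∆g/+ and K-rasLA1/+, grown as a mass population and not from 1 cell. No further drug treatment or time point is given. The labels disagree on whether the vectors were delivered by retroviral infection or by transfection, and they name 1 shRNA construct, so an effect of that construct and an effect of the depletion cannot be told apart. The labels call the 3 arrays of a group triplicate cultures and name no separate infections or transfections, so p-values measure the spread between these cultures only.

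Matrix glycoproteins are secreted proteins that bind collagens, growth factors and cell surface receptors. Fibronectin is a structural one: cells assemble it into fibrils through integrins, and many other matrix proteins are laid down on it. Matricellular proteins such as tenascin C, SPARC and the thrombospondins add little to the strength of the matrix; they alter how cells attach to it and respond to growth factors, and in tumours they are known mostly as products of the stroma, but tumour cells make some of them as well.

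Of the 9 genes, Fn1 and Sparc rose with the shRNA, and for 7 genes the brightest probe set did not pass the test. Fn1 was 1.40-fold and Sparc 1.14-fold higher. Tnc gave the largest log2 change of the set, 0.75, and Fbln2 gave 0.18, both short of the threshold. Postn and Fstl1 stayed within the background of the arrays in both groups. Over single probe sets, 4 of 21 passed, all higher, against 6.37% of all probe sets (2868 of 45037) at a limma adjusted p under 0.05. In one direction, 3.57% of all probe sets passed as higher and 2.79% as lower. None of the 21 passed as lower. An unadjusted limma p under 0.05 was found for 1 of the 21 as lower and 6 as higher. Over all probe sets it was found for 8382 of 45037, both directions together. Of the 14 member probe sets above background in at least 1 group, the same 4 passed, against 9.17% of all such probe sets. By the brightest probe set, 2 of 9 genes passed, both higher, against 9.46% of all genes (5.23% higher and 4.23% lower). With so few members, these counts do not set the group apart from the rest. The median log2 change was 0.18 over the 9 genes and -0.01 over all genes, and 0.08 over the 21 probe sets. On the normalized scale the groups did not overlap in 10 of the 21 probe sets, against 23.1% of all probe sets (11.7% above and 11.4% below). Of the 10, 7 had the shRNA cultures above, among them an Fstl1 set within background, and 3 had them below. In the deposited values 6 lay above and 2 below without overlap.

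Intensities are given in the units of the deposited table. Log2 changes are shRNA minus control after a pseudocount of 16 and quantile normalization, which understates changes of dim probe sets. A probe set is called within background where its group mean is at or below 39.47 units, the highest value that the 3 trpnX probe sets (a bacterial transcript absent from the cells) reached on any array; 7 of the 21 member probe sets lay there in both groups. Levels of different probe sets are not comparable, since each binds with its own strength. Median intensity was 92 to 95.76 units per array, and the pairs of arrays correlated at r = 0.990 to 0.995 across probe sets. Map2k4 checked the labels: its brightest probe set gave 700, 638 and 597 units in the control cultures and 240, 295 and 287 in the shRNA cultures, a log2 change of -1.21. Over all probe sets 1610 were higher and 1258 lower, or 1229 and 613 with the values as deposited.

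The cells carried the markers of an epithelial tumour. All 8 epithelial markers lay above background with means over the 6 arrays of 3019 to 14148 units, among them keratins 8 and 18. The 10 fibroblast markers reached at most 197 units, 4 of them within background (Pdgfrb, Dcn, Thy1 and Fap). Their summed intensity was 704 to 764 units in the control arrays and 658 to 760 in the shRNA arrays. None of the 10 passed the limma test, and 1 had an unadjusted p under 0.05, as did 8382 of all 45037 probe sets. The summed leukocyte markers (7 measured, 3 of them within background) ran from 1136 to 1238 units with the control vector and 1064 to 1256 with the shRNA, and the summed endothelial markers (6 measured, 2 within background) from 1080 to 1224 and 931 to 1120. The brightest leukocyte marker was Csf1r, a macrophage receptor gene, at 771 and 725 units in the control and shRNA groups, which is most of that sum, followed by Adgre1 at 239 and 235. The brightest endothelial markers were Flt1, at 503 and 458 units, and Kdr, at 394 and 345, both VEGF receptor genes. Ptprc, the pan-leukocyte gene, had group means of 33.2 and 41.6 units, Cd3e, a T cell gene, 2.65 and 1.09 units, and Pecam1, an endothelial gene, 28.3 and 27.9. None of these markers passed the limma test either, and 0 had an unadjusted p under 0.05. The summed epithelial markers spanned 55768 to 56493 and 55607 to 56840 units.

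**Figure D1:**
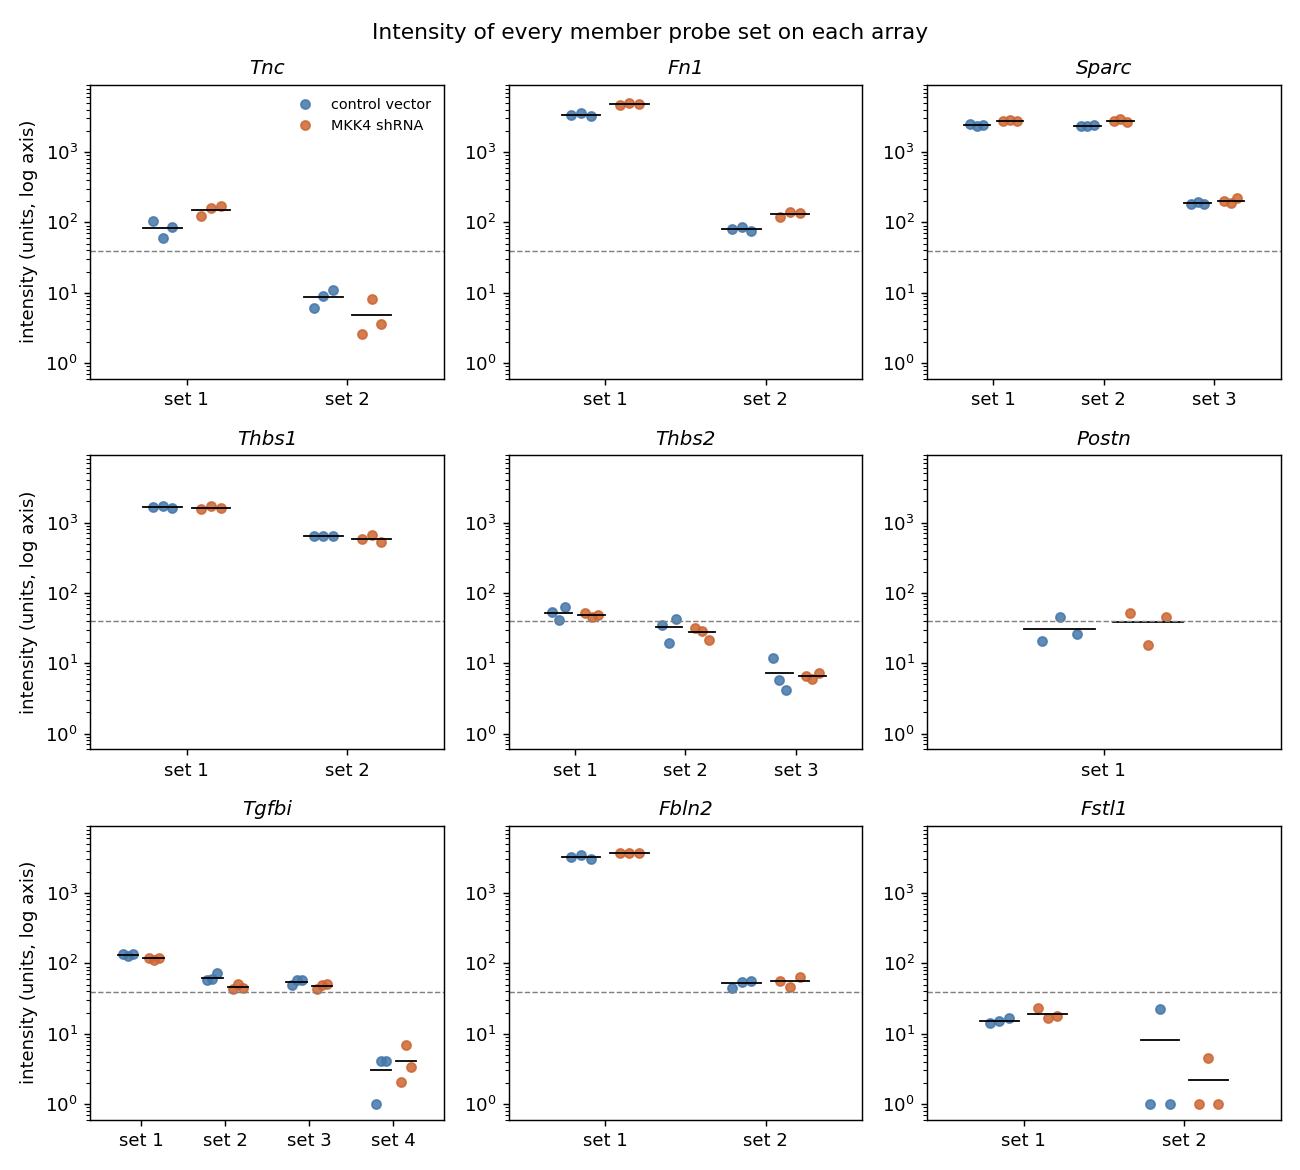
Intensity (units as deposited, log axis) of each of the 21 probe sets of the 9 genes on every array, with control vector arrays in blue and MKK4 shRNA arrays in orange. Each point is 1 array, short black lines are group means of 3 arrays, the probe sets of a gene are numbered from the brightest, and the dashed line is the background of 39.47 units. The orange points of both Fn1 sets and of the first 2 Sparc sets lie above all blue ones, while the group means of Postn, both Fstl1 sets and the last sets of Tnc, Thbs2 and Tgfbi lie below the line.

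Fn1, the gene of fibronectin, gave the firmest change of the set. Its bright probe set (1426642_at) read 3323, 3648 and 3275 units in the control cultures and 4738, 4934 and 4860 in the shRNA cultures. Every shRNA culture exceeded every control culture, and the gap between the groups was wider than the range within either. The means were 3415 ± 203 and 4844 ± 98.8 units (SD, n = 3), which on the log2 scale is a change of 0.49 (SE 0.046, 95% interval 0.38 to 0.60, limma adjusted p = 0.00158). It passed in all of the 16 other settings tried, with log2 changes of 0.46 to 0.55.

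The second Fn1 probe set (1437218_at), far dimmer but above background, moved the same way. It read 80.0, 87.1 and 74.6 units with the control vector and 119, 143 and 138 with the shRNA, again without overlap. Its log2 change was 0.62 with a 95% interval of 0.38 to 0.85 and a limma adjusted p of 0.0137. The change on this probe set exceeded that on the bright one by 0.13 on the log2 scale, with a 95% interval of -0.07 to 0.33 (exact two-sided permutation p = 0.2). So the Fn1 rise was seen on both probe sets, at sizes that this design does not tell apart. On 5 arrays this second set missed the threshold without control replicate 1 (limma adjusted p = 0.0557), control replicate 3 (0.0598), shRNA replicate 2 (0.075) or shRNA replicate 3 (0.0666). It missed with the replicate block too, and passed in 9 of its 14 other settings.

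Sparc, which encodes a small collagen-binding glycoprotein also called osteonectin, rose with a smaller log2 change than Fn1 and little spread. The brightest of its 3 probe sets (1448392_at) read 2489, 2370 and 2445 units in the control cultures and 2720, 2894 and 2802 in the shRNA cultures. The groups did not overlap. The log2 change was 0.19 with a 95% interval of 0.12 to 0.25 and a limma adjusted p of 0.00795. A second set of similar brightness (1416589_at) averaged 2378 ± 23.7 units with the control vector and 2779 ± 126 with the shRNA (SD, n = 3). Its log2 change of 0.20 also passed (limma adjusted p = 0.0175). These sets differed from each other by 0.02, with a 95% interval of -0.08 to 0.11. The third, dimmer set (1458204_at) read 184, 196 and 180 units with the control vector and 201, 187 and 222 with the shRNA. Here the groups overlapped, and the log2 change of 0.10 did not pass (limma adjusted p = 0.63); its 95% interval, -0.10 to 0.30, holds the change of the brighter sets. The Sparc calls depend on the variance model: without a trend in the prior variance the brightest set gave an adjusted p of 0.124. The second set also lost its call without control replicate 1 (0.0652), control replicate 2 (0.0693), control replicate 3 (0.0557), shRNA replicate 1 (0.0674) or shRNA replicate 2 (0.0829), and the brightest set kept it each time (adjusted p 0.0246 to 0.0499).

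Tnc encodes tenascin C, a large glycoprotein that loosens the attachment of cells to fibronectin. Its bright probe set (1416342_at) read 106, 59.5 and 87.1 units with the control vector and 123, 163 and 169 with the shRNA. All shRNA cultures lay above all control cultures, but the spread among the control cultures was wide. The log2 change was 0.75 with a wide 95% interval of 0.30 to 1.20, and the limma adjusted p over all probe sets was 0.0704. Tnc passed in 3 of the 16 other settings, and in 0 of the 6 fits with an array left out (limma adjusted p 0.0673 to 0.23). Fitted again on 1 probe set for each of 18193 genes, it passed at 0.04, and fitted again on the brighter probe sets at 0.00482. Each of these fits estimates the variances anew, so the p-values change too, not only the adjustment. The second Tnc set (1456344_at) reached at most 11.1 units on any array, within background, so its log2 change of -0.25 carries no direction. The mean of both sets gave 0.25.

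Fbln2, the gene of fibulin 2, a glycoprotein that binds fibronectin and elastic fibre proteins, was close to the threshold too. Its bright set (1423407_a_at) read 3209, 3447 and 3088 units with the control vector and 3694, 3681 and 3743 with the shRNA. The groups did not overlap, the shRNA cultures being the tighter ones. The log2 change was 0.18 with a 95% interval of 0.08 to 0.29 and a limma adjusted p of 0.064. It passed in 3 of the 16 other settings, among them a new fit with 1 probe set per gene (0.0368). Of the 6 fits with an array left out, 1 passed, that without control replicate 2 (0.0236), and the adjusted p reached 0.19. It was 0.229 without the variance trend, 0.156 with the replicate block and 0.354 with the mean of both sets. The other set (1438375_at) lay at 52.0 ± 6.57 and 55.7 ± 9.08 units (SD, n = 3), close to background, with overlapping groups and a log2 change of 0.08 (adjusted p = 0.843).

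The upstream sequences of Tnc, Sparc and Fbln2 are shown because their bright sets all lay higher with the shRNA and because JNK and p38 act on transcription factors of the AP-1 and CRE-binding families. Each sequence is the 250 bases before the RefSeq start (GRCm38.p6), read 5′ to 3′ on the gene's strand, with capitals for a GC box (GGGCGG) or a TATA motif (TATAAA) on either strand. Tnc has 2 annotated starts, and the upstream one was used; Fn1 and Thbs1 had no entry.
Tnc (chr4:64047016-64047265, minus strand): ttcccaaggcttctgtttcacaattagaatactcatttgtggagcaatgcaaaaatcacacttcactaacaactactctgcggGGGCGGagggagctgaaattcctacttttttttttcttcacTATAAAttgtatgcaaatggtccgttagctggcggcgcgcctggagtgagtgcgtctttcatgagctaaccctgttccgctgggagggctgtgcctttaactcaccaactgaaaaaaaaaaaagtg
Sparc (chr11:55420081-55420330, minus strand): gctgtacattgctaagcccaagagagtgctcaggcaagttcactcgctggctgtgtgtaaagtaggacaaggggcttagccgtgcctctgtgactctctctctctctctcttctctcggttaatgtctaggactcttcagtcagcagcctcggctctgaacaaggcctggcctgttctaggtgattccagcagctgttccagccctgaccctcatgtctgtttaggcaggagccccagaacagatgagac
Fbln2 (chr6:91212514-91212763, plus strand): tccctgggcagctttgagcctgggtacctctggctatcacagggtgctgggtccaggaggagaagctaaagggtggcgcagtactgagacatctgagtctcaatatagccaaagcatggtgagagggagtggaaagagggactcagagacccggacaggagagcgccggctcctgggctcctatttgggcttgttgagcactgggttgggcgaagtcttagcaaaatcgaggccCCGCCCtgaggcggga
Tnc holds a GC box 167 bases and a TATA motif 126 bases before its start, Fbln2 a GC box 16 bases before its start, read on the opposite strand, and Sparc neither motif. Over the 11 upstream windows of 8 listed genes, Spp1 included, 5 held GGGCGG and 5 TATAAA, against 32.7% and 12.4% of 32851 windows of the same length. The AP-1 motif TGANTCA and the CRE motif TGACGTCA, searched on both strands, were in 0 of the 11, and in 6.75% and 1.55% of all windows. With shares this low, 0 of 11 windows does not set these genes apart. All these motif counts describe letters in a short window and not bound sites. The 2 Tnc windows overlap and hold the same GC box and TATA motif, so each count of 5 has 1 site counted again. By gene, 4 of the 8 held GGGCGG and 4 TATAAA, and no share by gene was counted over all genes. The TATAAA matches lay from 26 (Postn) to 211 (Spp1) bases before the start. With so few windows, these counts do not set the genes apart.

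**Figure D2:**
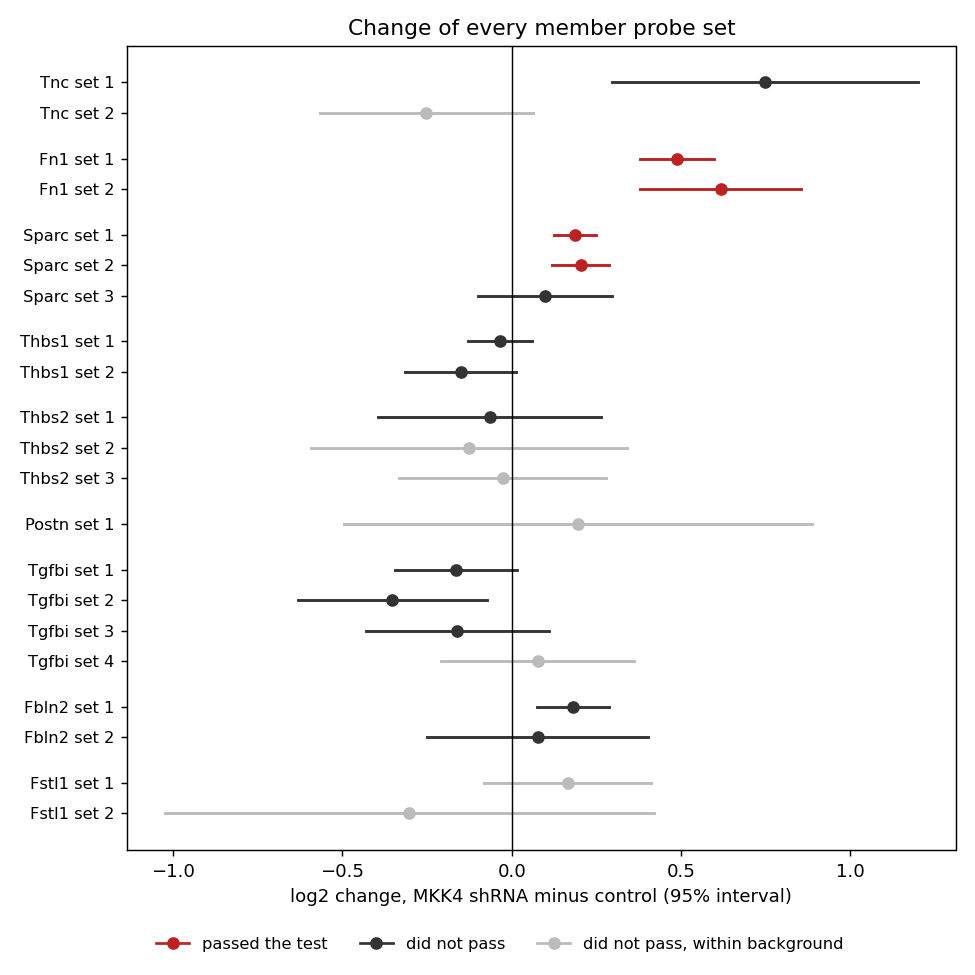
Log2 change (MKK4 shRNA minus control, horizontal axis) of each of the 21 probe sets with its 95% interval from the limma fit, grouped by gene and numbered from the brightest. Red marks the 4 sets that passed the test and black those that did not. Grey marks sets that did not pass and lay within background in both groups. Both Fn1 sets lie between 0.38 and 0.85 over their whole intervals. The first Thbs1 set lies near 0, and the second at -0.15 with an interval of -0.31 to 0.01.

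The thrombospondins gave no call. Thbs1, whose product binds Cd47 and Cd36 and can activate latent TGF-beta, read 1661, 1742 and 1598 units on its bright set (1460302_at) with the control vector and 1557, 1713 and 1615 with the shRNA. The groups overlapped, and the log2 change was -0.03 with a 95% interval of -0.13 to 0.06. A rise as large as that of Fn1 or Sparc lies outside this interval. The second Thbs1 set (1450377_at) read 645, 639 and 646 units against 576, 666 and 530, with a log2 change of -0.15 and an interval of -0.31 to 0.01 (limma adjusted p = 0.316). The shRNA cultures were lower here after normalization but overlapped the control range in the deposited values. Thbs2, its close relative, lay near background: the brightest of 3 sets (1450663_at) read 53.5, 41.1 and 62.8 units against 52.0, 45.9 and 49.1, with a log2 change of -0.07. The other 2 Thbs2 sets were within background.

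Postn and Tgfbi encode secreted proteins built from fasciclin domains, periostin and TGFBI, and neither passed. The single Postn set (1423606_at) read 20.8, 45.3 and 26.4 units with the control vector and 52.0, 17.9 and 45.6 with the shRNA, values on both sides of the background line in each group. Its group means were 30.8 and 38.5 units, both within background, so no direction is read from it. The 3 Tgfbi sets above background all had lower means with the shRNA. The brightest (1437463_x_at) read 134, 129 and 137 units with the control vector and 121, 113 and 119 with the shRNA, without overlap, but the log2 change of -0.16 did not pass (limma adjusted p = 0.322). The next set (1456250_x_at) averaged 62.9 ± 8.24 units with the control vector and 45.9 ± 3.98 with the shRNA (SD, n = 3), or -0.35 on the log2 scale (0.158), and the third (1448123_s_at) gave -0.16 (0.549). The suffixes of these 3 sets mark probes that can match more than 1 transcript. The Tgfbi set without such a suffix (1415871_at) reached no more than 6.92 units on any array, within background, with a log2 change of 0.08.

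Fstl1, which encodes a secreted follistatin-like glycoprotein, was within background on both sets. The brighter (1448259_at) read 14.1, 15.3 and 16.7 units with the control vector and 23.1, 16.5 and 17.9 with the shRNA. The dimmer (1416221_at) stood at exactly 1 unit on 4 of the 6 arrays. At this level the arrays carry no information on a change of Fstl1 or Postn.

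Agreement between the probe sets of a gene was compared in 12 pairs, each a further set against the brightest of the same gene. In 9 of the 12 the change had the same sign, and the 3 exceptions (Tnc, Tgfbi and Fstl1) were further sets within background. The difference in log2 change had a 95% interval that excluded 0 in 1 pair, that of Tnc, at -0.9995 (-1.78 to -0.21). Its exact two-sided permutation p was 0.1, the smallest that 3 against 3 arrays allow, and 0.6 after Benjamini-Hochberg adjustment over the 12 pairs.

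Relatives of the members in the same families were mostly dim. Of 26 measured genes 1 fell, none rose and 25 did not pass, and 15 were within background. The share called was 3.85%, against 9.46% of all genes (5.23% higher and 4.23% lower). Of the 11 relatives above background in at least 1 group, 1 passed, against 9.17% of all probe sets above background. The gene that fell was Tnxb, of the tenascin family. It averaged 199 ± 10.3 units with the control vector and 144 ± 10.8 with the shRNA (SD, n = 3), or -0.44 on the log2 scale (limma adjusted p = 0.0172). Leaving out replicate 2 or 3 of either group ended the Tnxb call (adjusted p up to 0.0758). The median log2 change of the relatives was -0.09. An unadjusted limma p under 0.05 was found for 0 of them as higher and 1 as lower. Over all probe sets it was found for 8382 of 45037 in either direction. Thbs3 (184 and 171 units), Fbln1 (172 and 161 units) and Comp (42.5 and 39.9 units) did not pass.

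Among 47 other glycoproteins of the matrix 3 rose, 4 fell and 40 did not pass, and the median log2 change was 0.02. The share called was 14.9%, against 9.46% of all genes. The lists were chosen with earlier results of these data known, so such shares do not set a list apart from all genes. Igfbp7, which encodes a secreted protein that binds insulin-like growth factors and collagen, had a larger change than any member. Its brightest set read 499, 519 and 482 units with the control vector and 1461, 1537 and 1582 with the shRNA, a 2.96-fold rise (log2 1.57, limma adjusted p = 9.49e-06). A second Igfbp7 set, at 168 and 166 units, gave -0.03, and the dimmest, from 29.0 to 46.5 units, gave 0.48, neither passing; the 3 sets of this gene thus did not show 1 common size. Pcolce2, the gene of an enhancer of procollagen processing, rose by 0.54 on the log2 scale, from 332 ± 18.0 to 497 ± 36.5 units (SD, n = 3). Matn2, a matrilin gene, rose from within background (23.5 units) to 44.6, a call that ended when any 1 of the 6 arrays was left out (adjusted p 0.064 to 0.0966).

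The falls among these glycoproteins were led by Npnt, the gene of nephronectin, an integrin ligand of epithelial basement membranes. It read 4907, 4811 and 4714 units with the control vector and 2934, 3248 and 3085 with the shRNA, without overlap, a log2 change of -0.65 (limma adjusted p = 9.5e-05). Its 4 other sets gave -0.74 to -0.16, and 2 of them passed. Nid1, which encodes the basement membrane linker nidogen 1, fell by 0.33 on its brightest set, from 1338 ± 37.8 to 1072 ± 67.3 units (SD, n = 3). Another Nid1 set above background, at 103 and 145 units, gave 0.44 (adjusted p = 0.153), and the mean of the Nid1 sets gave 0.07. Agrn (-0.17), the agrin gene, and Ltbp3 (-0.17), a gene of latent TGF-beta binding, passed with all arrays but not when any 1 array was left out (adjusted p 0.0823 to 0.164 and 0.0752 to 0.13).

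Of the 25 receptor genes of the members that were measured, 22 lay above background in at least 1 group. Of the 25, 3 rose, none fell and 22 did not pass, with a median log2 change of -0.0047. The share called was 12%, against 9.46% of all genes, and this list too was chosen with earlier results known. Of these receptor genes, 6 had an unadjusted limma p under 0.05 as higher and 3 as lower. Over all probe sets, 8382 of 45037 had one in either direction. Vcam1, a cell surface adhesion molecule that can bind SPARC, read 114, 112 and 98.6 units with the control vector and 385, 524 and 507 with the shRNA, a 3.85-fold rise (log2 1.94, limma adjusted p = 0.000213). Another set of Vcam1 gave 0.90. Itgb5, the integrin subunit that pairs with the alpha v chain, rose by 0.37 on the log2 scale, from 757 ± 18.3 to 992 ± 31.9 units (SD, n = 3), and its 3 other sets gave 0.48 to 0.53, all passing. Cd47, the thrombospondin receptor, rose by 0.35 on its brightest set, but its other sets gave 0.04 to 0.27 and did not pass.

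The chains through which cells hold fibronectin did not pass. Itga5 gave 117 ± 9.52 and 114 ± 2.80 units (SD, n = 3), and its log2 change was -0.03 with a 95% interval of -0.24 to 0.18. Its partner Itgb1 gave 1900 ± 141 and 1720 ± 89.5 units (SD, n = 3), or -0.15 on the log2 scale (limma adjusted p = 0.123). The Itgb1 interval, -0.25 to -0.04, excludes 0, and after normalization the shRNA cultures lay below all control cultures. Itgav, the alpha v chain, changed by -0.03 with an interval of -0.09 to 0.04. Cd44, a receptor for hyaluronan and osteopontin, changed by -0.04 with an interval of -0.11 to 0.02, and Cd36 went from 16.5 to 28.5 units, within background. The heparan sulphate receptor Sdc4 gave -0.20 (adjusted p = 0.0633) and the endocytic receptor Lrp1, which clears thrombospondins, 0.27 (0.0519).

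Among 21 enzymes that modify or cleave these glycoproteins 1 rose, 3 fell and 17 did not pass. The share called was 19%, against 9.46% of all genes. With so few genes, in a list chosen with earlier results known, this does not set the enzymes apart. Tgm2, the transglutaminase that crosslinks fibronectin, read 2102, 2173 and 2267 units with the control vector and 1545, 1727 and 1597 with the shRNA, a log2 change of -0.43 (limma adjusted p = 0.00238). Of its 5 other sets 3 also passed as lower, and the fifth, within background, gave 0.03. The plasminogen activator genes Plat and Plau fell by 0.59 and 0.23 on the log2 scale on their brightest sets. A second Plau set gave -0.43 and passed; a second Plat set, at 118 and 122 units, gave 0.02. Adamts1, a protease gene whose product cleaves thrombospondin 1, rose by 0.54 on the log2 scale, from 168 ± 22.6 to 252 ± 1.76 units (SD, n = 3); the call ended without control replicate 1 or shRNA replicate 1, 2 or 3, with adjusted p up to 0.0884. Mmp2 and Mmp9, the gelatinase genes, gave 0.04 and -0.05, and Lox, the lysyl oxidase gene, -0.11, none passing.

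**Figure D3:**
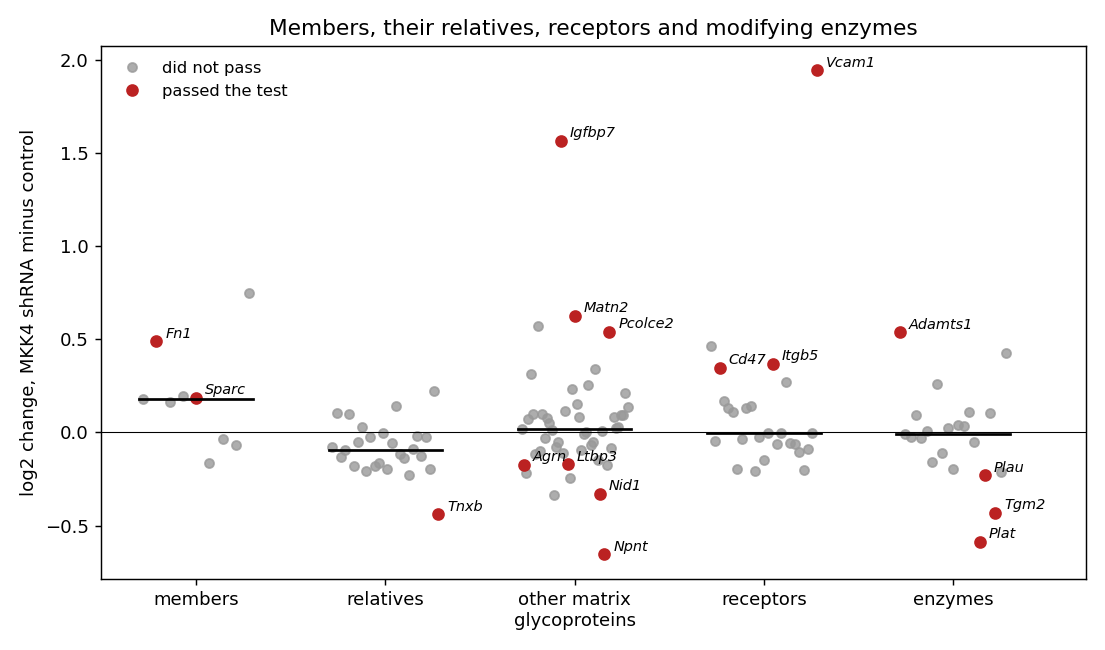
Log2 change (MKK4 shRNA minus control, vertical axis) of the brightest probe set of each gene, 1 point a gene, for the 9 members and 4 lists of 26 relatives, 47 other matrix glycoproteins, 25 receptors and 21 enzymes. Red points with names passed the test, grey ones did not, and black lines are medians; Vcam1 at 1.94 and Igfbp7 at 1.57 stand above all members, and Npnt at -0.65 is the lowest of the named points.

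Of 8 epithelial markers measured, 3 fell, Epcam (-0.35), Cdh1 (-0.14) and Cldn7 (-0.13), and Krt19 rose by 0.23, against 9.46% of all genes called. Only Epcam kept its call when each array was left out in turn (adjusted p up to 0.0186); the others lost theirs without any 1 of the 6 arrays, at up to 0.122 for Cdh1, 0.151 for Cldn7 and 0.174 for Krt19. Whether this bears on the matrix genes was not tested. Since the cultures were measured in bulk, more RNA per cell and a larger share of cells making a transcript cannot be told apart.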

How the data were processed

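Per the labels' protocols, biotinylated cRNA from 6 cultures of 393P cells, 3 per group, was measured on Affymetrix arrays of 1 colour. The deposited values are linear intensities, 1 per probe set; how probes were summarised and arrays normalized before deposit is not given in the sources used here. Here, 16 was added, log2 taken and arrays quantile-normalized (limma 3.58.1, R 4.3.3). After 64 control probe sets were left out, 45037 probe sets were fitted together (lmFit and eBayes, prior variance with a trend, group as the single term) with Benjamini-Hochberg adjustment over all of them at 0.05. A gene's call is that of its probe set with the highest mean over the 6 arrays. Platform annotation names 1 gene for 34945 probe sets, several for 932 and none for 9160; 18031 of 18193 genes were found in the GRCm38.p6 RefSeq table. The number of arrays limits the precision.

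Differences between probe sets of a gene were tested by exact two-sided permutation. The 4 gene lists around the members and the marker lists are described by counts and medians. All members were named, and of each list up to 4 called genes per direction by size; other list genes were named for their role after their values were seen. Members and lists were chosen with earlier results of these data known. The fit was tested on simulated data. Alternatives were the values as deposited, centred medians, pseudocounts of 1 and 64, no dimmer probe sets, no variance trend, a replicate block, 1 probe set or the mean of all per gene, no _s_at or _x_at sets, and leaving out each array.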

Additional observations from a re-analysis of the deposited data

How the results depend on the processing

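The rise of Fn1 on its bright set and the fall of Map2k4 (log2 -1.26 to -1.09) passed in all 16 other settings. The brightest Sparc set passed in 14 of 16, not without the variance trend (limma adjusted p = 0.124) or with the replicate block (0.0659). Of the 9 members, 6 kept their side of the threshold in every setting that gave a value. The number of members called was 4, with Tnc and Fbln2 added, both without the dimmer probe sets and with 1 probe set per gene; it was 1 without the variance trend and 1 with the replicate block. Tnc also passed with centred medians (0.0407). Member probe sets called were 2 without the variance trend, 1 with the replicate block and 2 to 4 with an array left out, the lowest count without control replicate 1 or 3 or shRNA replicate 2. Of all probe sets 1842 were called with the values as deposited, 4309 of 22518 without the dimmer ones, 941 without the trend, 1139 with the replicate block and 1183 to 1867 with an array left out. The values gave no sign that the replicate letters pair the cultures. Deviations of cultures sharing a letter correlated at -0.03, -0.01 and -0.10, and those of cultures with different letters at -0.08 to 0.12. Such correlations cannot show that the cultures were not handled in pairs. Of the 19 other list genes called, 8 passed in every setting and 11 missed in at least 1; Nid1 turned to 0.068 with the mean of its probe sets (adjusted p = 0.622). The cause of these differences was not tested. Signal near background limits Postn, Fstl1, Thbs2 and the second Tnc set.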
